A study of Homo sapiens with 6 samples.

Results

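The genes described here encode the core of the phosphoinositide 3-kinase (PI3K) pathway: the regulatory subunits PIK3R1 and PIK3R3, the catalytic subunits PIK3CA and PIK3CB, the lipid phosphatase INPP4B, and the kinases AKT1, AKT2 and MTOR. These 8 of 19717 protein-coding genes with a score were chosen by name, with earlier results of the same libraries in view, and PIK3R1 because it lies in a long block that scored as compartment A in parental cells and B in tamoxifen-resistant cells. The gene bodies overlap 21 of the 27898 bins of 100 Kb that had a score in all 6 libraries, of 30376 bins in the genome, and with 10 bins on either side of each gene the windows hold 181 bins. Growth factor receptors recruit class I PI3K, a dimer of a catalytic and a regulatory subunit, to the plasma membrane, where it makes the lipid second messenger that brings AKT to the membrane. AKT in turn acts on mTOR complexes and on forkhead transcription factors, and phosphatases such as INPP4B remove the lipid signals. The pathway is known in estrogen receptor-positive breast cancer for frequent activating mutations of PIK3CA and for its links to resistance to endocrine drugs.

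Tethered conformation capture (TCC), a form of Hi-C with ligation on a solid surface, was used to map compartments in T47D, a long-established human line of breast cancer cells that carry the estrogen receptor. The parental cells were kept without hormone for 72 h and taken at once (T0) or 1, 4, 16 and 24 h after 100 nM estradiol (E2) was added (T1, T4, T16 and T24), and T47D TamR is a tamoxifen-resistant derivative. The labels give the agent of the TamR cells as untreated, whereas the study's methods describe TamR cells, without naming the line, as grown with 100 nM tamoxifen in medium with charcoal-stripped serum, so resistance and the drug and medium cannot be told apart. With 1 library for every condition, none of the differences could be checked against replicates, and no p-value is given. Whether TamR cells descend from 1 clone, and whether cultures were pooled, is not given in the sources used here. The value of a bin is the first eigenvector of the contact matrix, multiplied here by 1000. Bins above 0 were taken as compartment A, the active and gene-rich part of the nucleus, and bins below 0 as the inactive compartment B. A gene has the mean score of the bins its body overlaps, and its percentile is the mean of the percentile ranks of those bins among the scored bins of the library. Scores were scaled within a library, and their SD lay between 5.977 and 5.979 in all 6. Between 44.01% (T24) and 47.6% (TamR) of bins were positive. Pearson's r across bins was 0.985 to 0.996 between parental libraries (10 pairs) and 0.894 to 0.901 between a parental library and TamR (5 pairs). The median over bins of the difference of TamR from T0 was -0.268. The median score itself was higher in TamR (-0.429) than at T0 (-0.720). The depth behind a score is unknown, since the tables hold scores without contact counts. Where a mean ± SD of parental libraries is given, it spans 5 different conditions (n = 5) and stands in for a replicate error only as a description.

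The starts of 3 members are shown, PIK3R1, INPP4B and PIK3R3. In TamR the PIK3R1 bin changed sign, the INPP4B gene body moved to the border, and PIK3R3, the other regulatory subunit, scored higher. A score outside the parental range does not set these 3 apart, since those of AKT1, AKT2 and MTOR also lay below it in TamR. Each sequence is the 250 bases before a RefSeq start (GRCh38.p14 table), read on the gene's strand and found by exact match at 1 place in the hg19 sequence. Capitals mark a match on either strand to GGGCGG (the GC box), AGGTCA (a nuclear receptor hexamer, which can overlap the next motif), the estrogen response element (ERE, GGTCA and TGACC with any 3 bases between them) or AAGCTT (the HindIII site).
PIK3R1, chr5:67511334-67511583, plus strand: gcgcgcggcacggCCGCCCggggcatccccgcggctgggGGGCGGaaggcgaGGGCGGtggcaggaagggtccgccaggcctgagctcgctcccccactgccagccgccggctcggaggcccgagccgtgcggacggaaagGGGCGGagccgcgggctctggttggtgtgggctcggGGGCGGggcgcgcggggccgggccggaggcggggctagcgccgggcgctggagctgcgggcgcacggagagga
INPP4B, chr4:143767455-143767704, minus strand: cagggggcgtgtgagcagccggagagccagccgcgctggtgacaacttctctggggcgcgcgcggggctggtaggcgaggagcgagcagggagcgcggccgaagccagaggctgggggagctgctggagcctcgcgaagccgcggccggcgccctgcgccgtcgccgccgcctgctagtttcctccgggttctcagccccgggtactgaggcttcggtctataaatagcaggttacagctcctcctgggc
PIK3R3, chr1:46598709-46598958, minus strand: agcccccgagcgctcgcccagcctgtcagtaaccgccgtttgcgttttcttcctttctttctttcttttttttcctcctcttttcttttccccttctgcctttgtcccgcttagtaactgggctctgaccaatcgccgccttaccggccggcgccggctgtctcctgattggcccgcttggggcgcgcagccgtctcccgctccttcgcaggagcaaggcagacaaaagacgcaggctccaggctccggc
The PIK3R1 sequence was 81.6% G or C and held 5 GC boxes, whereas that of INPP4B (70.8%) and that of PIK3R3 (60.4%) held no match to any of the motifs. These are 1 of 4 RefSeq starts of PIK3R1, 1 of 6 of INPP4B and 1 of 6 of PIK3R3, the outermost ones for PIK3R1 and INPP4B. A GC box preceded 2 of the 4 PIK3R1 starts, none of the 6 INPP4B starts and 1 of the 6 PIK3R3 starts, and AGGTCA preceded 1 start each of INPP4B and PIK3R3. The last 16 bases of the PIK3R1 sequence and the last 30 of the INPP4B sequence fall in annotated exons, and the PIK3R3 sequence overlaps none. Among 35116 RefSeq promoter sequences of the same length, 42.6% held a GC box, 12.1% AGGTCA, 5.02% a HindIII site and 0.0399% an ERE. The ERE was also absent from the 100 Kb PIK3R1 bin, as from most bins (7.17% held at least 1).

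PIK3R1, which encodes the p85 alpha regulatory subunit that holds and stabilises the catalytic subunit, was the one member that scored as A in every parental library and as B in TamR. The gene (ENSG00000145675.16_11, chr5:67511568-67597649, plus strand, hg19) lies inside 1 bin, chr5:67500001-67600000, which overlaps no other protein-coding gene and holds the starts of all 24 annotated coding transcripts. The score of that bin was 3.95 at T0, 3.03 at T1, 2.78 at T4, 2.99 at T16, 2.94 at T24 and -3.66 in TamR. All 5 parental values lay above the border, within 1.18 of each other, and the TamR value lay 6.44 below the lowest of them. In ranks, the gene lay between the 67.7th and 73.5th percentile in parental cells and at the 33.1st in TamR. The difference of TamR from T0 was -7.62, and 0.142% of genes had a lower one. PIK3R1 was chosen for this change, so nothing is read from that share. Against the parental mean (3.14 ± 0.466, SD, n = 5) it was -6.80. Among all genes, 2.74% (541 of 19717) passed from A in all parental libraries to B in TamR, and of the 14651 that were A in all parental libraries 3.69% did. The members held 1 such gene of 8, the one whose change chose the group, so nothing is read from the count.

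**Figure D1:**
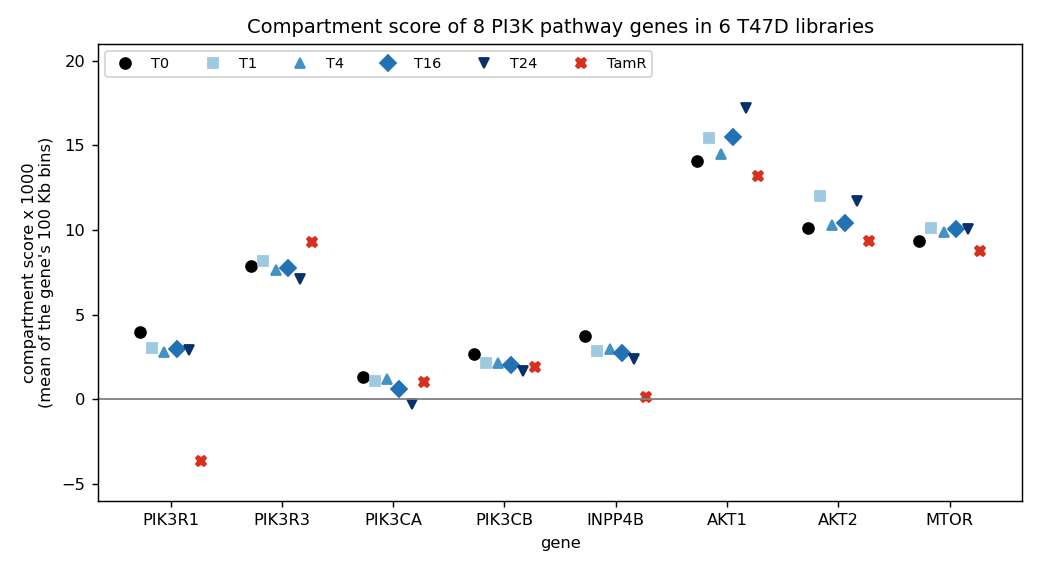
Compartment score (x 1000, y axis) of each of the 8 genes (x axis) in the 6 libraries, 1 point per library, with the border between A and B at 0. PIK3R1 is at 2.78 to 3.95 in the parental libraries and at -3.66 in TamR, INPP4B is close to 0 in TamR, and AKT1 is highest in all 6 libraries.

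The bin of PIK3R1 was part of a run of 30 bins (chr5:65300001-68300000, 3000 Kb) that were all A in the parental libraries and all B in TamR. The run averaged 2.49 at T0, 2.41 at T1, 2.51 at T4, 2.58 at T16, 2.37 at T24 and -4.39 in TamR. Every parental value in the run lay between 0.846 and 3.95, and every TamR value between -8.17 and -0.507, so that the run was a flat, weakly positive stretch over E2 and an uneven negative one in TamR. PIK3R1 was not at the lowest point. That point, and also the largest difference from T0, lay 500 Kb before its bin, in chr5:67000001-67100000, with 2.26 at T0 and -8.17 in TamR, the 65.3rd and the 5.85th percentile. The 22 bins before PIK3R1 averaged -5.03 in TamR and the 7 bins after it -2.47.

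The run held 4 protein-coding gene starts and 2 EREs, both of them before the PIK3R1 bin, and its GC content was 39.4% (median of all bins 39.8%). SREK1, a splicing regulator, scored 2.53 at T0 and -1.35 in TamR. MAST4, a serine/threonine kinase, scored 2.76 and -4.17, and CD180, a Toll-like receptor homologue of B cells, 3.15 and -3.80. ERBIN, which binds the receptor ERBB2 and reaches into the run from outside, scored 2.92 and 0.242 over its body. The bin just before the run, still A in TamR, scored 3.32 at T0 and 0.632 in TamR, and the bin just after it 5.23 and 0.0517. Beyond the run, the difference continued without a change of sign on the far side: SLC30A5, a zinc transporter, scored 6.31 at T0 and 1.12 in TamR, CCNB1 (cyclin B1) 7.39 and 2.18, and CDK7, the CDK-activating kinase, 7.72 and 3.29. On the near side the 10 bins averaged -1.62 at T0 and -2.59 in TamR. The 5 of them next to the run lay below all parental libraries in TamR, and 2 changed from A to B, with 0.972 at T0 and -0.141 in TamR in one and 1.91 and -0.816 in the other. TRAPPC13, SHLD3, SGTB and NLN, which overlap those bins, passed from A to B, NLN with 1.998 at T0 and -0.107 in TamR. In TamR TRAPPC13 and SHLD3 (both -0.141) and NLN lay close to the border, above the library median of -0.429. The other bin of NLN stayed A, at 0.602. TRIM23, which also overlaps one of those bins, was B throughout, with -0.240 at T0 and -1.16 in TamR. The whole stretch in which TamR lay below all parental libraries was 41 bins long (chr5:64800001-68900000), of which 32 changed from A to B. It stops at bins without a score (chr5:68900001-69300000), so its far end is not known. Over the genome 43.6% of scored bins lay below all parental libraries, in 2083 stretches with a median length of 2 bins. At least as long as that at PIK3R1 were 33 stretches, that one included. PIK3R1 was chosen for its long block, so nothing is read from this length.

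PIK3R3, which encodes the regulatory subunit p55 gamma, scored higher in TamR, opposite to PIK3R1. Its bin (ENSG00000117461.15_11, gene at chr1:46505812-46598708, minus strand) scored 7.85 at T0, 8.16 at T1, 7.64 at T4, 7.76 at T16, 7.08 at T24 and 9.30 in TamR. The TamR value was above all 5 parental values (7.70 ± 0.394, SD, n = 5), by 1.14 over the highest, and the percentile was 87.9 at T0 and 91.8 in TamR. It missed the rule for a shift, 10 percentile points beyond the parental range, which 8.53% of genes met upwards, and no member did. The bin is shared with the kinase gene MAST2 and with a readthrough transcript of PIK3R3 itself. The gene lay near one end of a stretch of 82 bins (chr1:46000001-54200000) in which TamR was above all parental libraries, with a parental mean of 1.79 and a TamR mean of 6.15. In that stretch 28 bins passed from B to A, none of them within 10 bins of PIK3R3, where all 20 flanking bins were A in each condition. Stretches above all parental libraries held 35.0% of scored bins, and 5 of 1519, this one included, were at least as long.

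The catalytic subunit genes lay close to the border, and their scores did not leave the parental range in TamR. PIK3CA (p110 alpha, ENSG00000121879.6_14, chr3:178865902-178957881, plus strand, 2 bins) scored 1.34 at T0, 1.06 at T1, 1.20 at T4, 0.604 at T16, -0.265 at T24 and 1.02 in TamR. It was the one member with another sign than T0 in an E2 library, at T24, when both of its bins were negative (-0.473 and -0.0565). A sign change over E2 was seen in 5.31% of genes. The percentile at T24 was 54.5, above the middle of the library, against 60.6 at T0, and T24 was the library with the fewest positive bins. PIK3CB (p110 beta, ENSG00000051382.9_13, chr3:138371540-138553770, minus strand, 3 bins) scored 2.69 at T0, 2.13 at T1, 2.15 at T4, 2.03 at T16, 1.68 at T24 and 1.90 in TamR. The TamR value lay between those of T24 and T16, whereas its percentile, 62.8, was below the lowest parental one, 64.4.

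Around both catalytic genes more of the flanking bins were A in TamR than at T0. Of 20 flanking bins of PIK3CA, 5 were A at T0, 1 at T24 and 9 in TamR. A run of 7 bins before the gene (chr3:177500001-178200000) was B in all parental libraries, with a mean of -1.58 at T0, and A in TamR, with 2.68. It lies partly inside the window of PIK3CA, where 5 bins passed from B to A, against 6.13% of all scored bins. The 1 of them outside the run scored 0.0298 in TamR, close to the border. Of 20 flanking bins of PIK3CB, 6 were A at T0, 2 at T24 and 10 in TamR, and 4 passed from B to A. Of these, 3 lie together at chr3:139100001-139400000, with a mean of -2.42 at T0 and 0.240 in TamR. Their TamR scores were 0.568, 0.0752 and 0.0758, and that of the other bin 0.235, so these calls rest on values close to the border. Among genes, 3.82% passed from B in all parental libraries to A in TamR, and no member did.

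INPP4B, a phosphatase that removes the 4-phosphate of PI3K lipids and is counted among tumour suppressors of breast cancer, moved to the border in TamR. The gene (ENSG00000109452.13_16, chr4:142944313-143768585, minus strand) is the longest of the 8 and covers 9 bins with no other protein-coding gene. Its mean score was 3.75 at T0, 2.87 at T1, 2.99 at T4, 2.75 at T16, 2.39 at T24 and 0.134 in TamR. The TamR value lay 2.25 below the lowest parental one, and the percentile was 72.5 at T0 and 53.1 in TamR. The difference from T0 was -3.62, and 3.31% of genes had a lower one. Below the parental range by at least 10 percentile points were 2 members, PIK3R1 and INPP4B, of 8, where 6.82% of all genes were. The TamR values of the members were known when they were chosen, so nothing is read from this count or from the share of lower genes.

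Along the INPP4B body the difference was uneven. All 9 bins were A in every parental library, between 2.60 and 5.14 at T0. In TamR 4 of the 9 were B, with -0.106 in the bin of the gene's 3′ end, -0.880, -0.0769 and, in the bin of the 5′ end, -0.627, and the other bins scored 0.00894 to 1.01. The most positive bin was the same at T0 and in TamR, chr4:143500001-143600000, nearer to the 5′ end than to the 3′ end. The 12 transcript starts lie in 4 of the bins, of which the 5′ bin (chr4:143700001-143800000) and 1 internal bin (chr4:143200001-143300000) were B in TamR. The internal bin, at -0.0769, was so close to the border that its call is uncertain. The gene lay near the end of a stretch of 109 bins (chr4:133200001-144100000) in which TamR was below all parental libraries, with a parental mean of 0.840 and a TamR mean of -2.43. Of these bins 25 passed from A to B. A bin that does so lies below all parental libraries by definition, so the share of all scored bins (3.94%) is no measure for this stretch. Over the genome 12165 bins lay below all parental libraries, and 1099 bins passed from A to B. In the genome 4 stretches, this one included, were at least as long. No A-to-B run at INPP4B was longer than 3 bins.

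**Figure D2:**
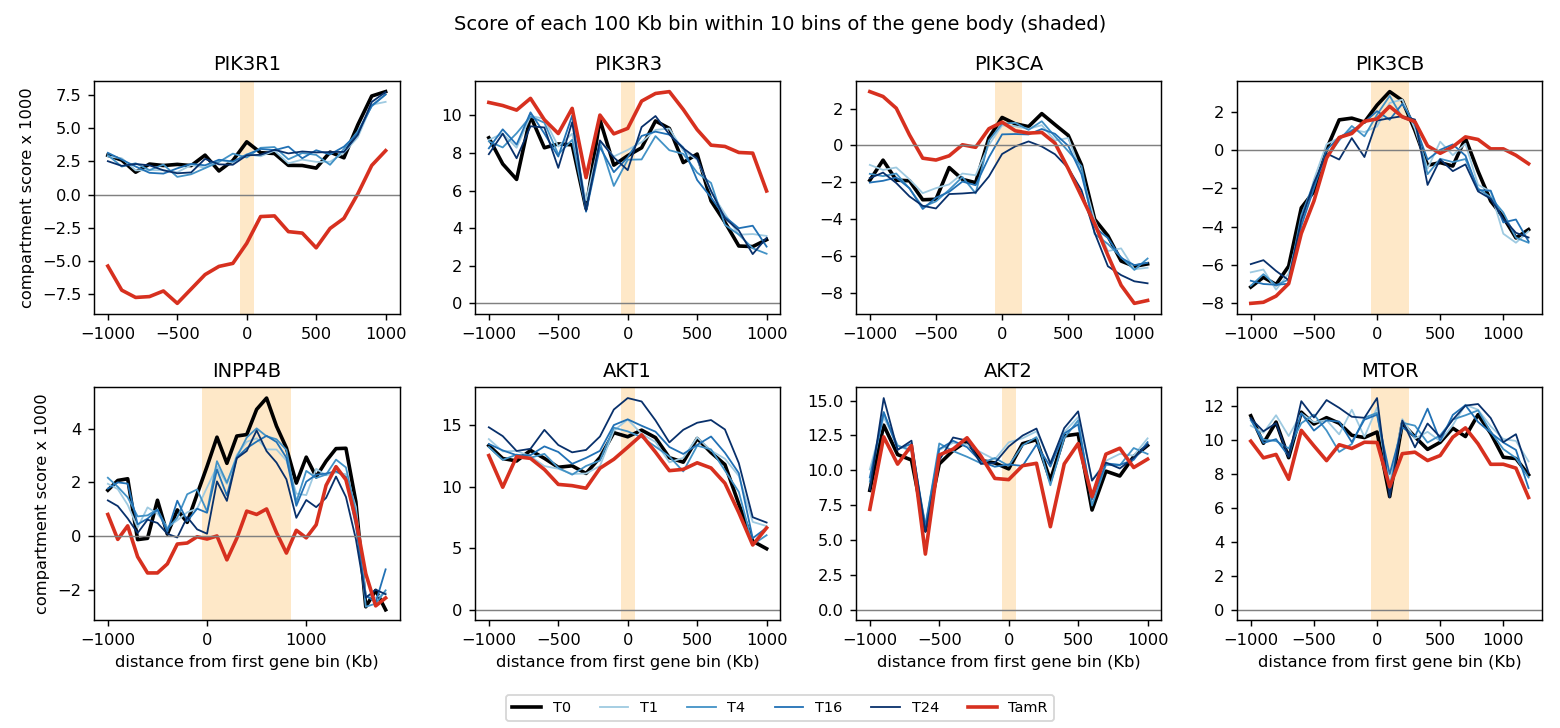
Compartment score (x 1000) of each 100 Kb bin from 10 bins before to 10 bins after each gene body (shaded), 1 line per library, against the distance from the first bin of the gene (Kb). The y axis differs between panels. TamR lies below the parental lines across the windows of PIK3R1 and most of INPP4B, above them at PIK3R3, and left of PIK3CA, and all lines are above 0 around AKT1, AKT2 and MTOR.

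The kinases downstream of PI3K lay deep in compartment A in every library. AKT1 (ENSG00000142208.18_15, chr14:105235686-105262088, minus strand, 1 bin) scored 14.1 at T0, 15.5 at T1, 14.5 at T4, 15.5 at T16, 17.2 at T24 and 13.2 in TamR, never under the 98.6th percentile. AKT2 (ENSG00000105221.18_17, chr19:40736224-40791443, minus strand, 1 bin) scored 10.1 at T0, 12.01 at T1, 10.3 at T4, 10.4 at T16, 11.7 at T24 and 9.33 in TamR. MTOR (ENSG00000198793.14_14, chr1:11166592-11322613, minus strand, 3 bins) scored 9.34 at T0, 10.1 at T1, 9.88 at T4, 10.1 at T16, 10.1 at T24 and 8.74 in TamR. For each of the kinase genes TamR was the lowest library, below T0 by 0.852, 0.772 and 0.602, and the percentile differed from T0 by 1.20 points or less. Such differences were common. A lower one was held by 39.3% of genes for AKT1, 41.0% for AKT2 and 44.9% for MTOR, and the median gene differed from T0 by -0.383. Below all parental libraries in TamR were 43.6% of scored bins. Against the parental mean the differences were larger, at -2.13 for AKT1, -1.58 for AKT2 and -1.15 for MTOR, and in the bin of its start MTOR differed from T0 by -1.77. The middle bin of MTOR scored 6.61 to 7.98 in the 6 libraries, below both other bins of the gene in each, and its TamR value (7.23) lay inside the parental range. All 20 flanking bins of each kinase gene were A in each condition. The bins of AKT1 and AKT2 each hold 3 other protein-coding genes and those of MTOR 5, so a score is not that of the gene alone.

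Ordered by the parental mean, the members were AKT1 (15.3 ± 1.21), AKT2 (10.9 ± 0.876), MTOR (9.90 ± 0.322), PIK3R3 (7.70 ± 0.394), PIK3R1 (3.14 ± 0.466), INPP4B (2.95 ± 0.502), PIK3CB (2.13 ± 0.362) and PIK3CA (0.787 ± 0.650). Among neighbours in this order, the parental ranges overlapped for AKT2 and MTOR, for PIK3R1 and INPP4B, and for INPP4B and PIK3CB. Within single libraries AKT2 was nevertheless above MTOR, and INPP4B above PIK3CB, in all 5 parental libraries, and PIK3R1 above INPP4B in 4 of 5. In TamR, PIK3R3 stood ahead of MTOR, and PIK3CB and PIK3CA ahead of INPP4B, with PIK3R1 last.

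Over E2 the members split by level. T0 was above all 4 E2 libraries for PIK3R1, INPP4B, PIK3CA and PIK3CB, those near the border, as for 25.4% of genes. It was below all 4 for AKT1, AKT2 and MTOR, as for 27.3% of genes. PIK3R3 did neither. At T24 AKT1 scored 3.14 above T0 and AKT2 1.60 above, while PIK3CA scored 1.61 below, INPP4B 1.36, PIK3R1 1.02 and PIK3CB 1.01 below. AKT2 was highest at T1 and lower at T4 and T16, so its values did not follow the time in E2. Neighbouring bins of 1 library differed by a median of 0.711 at T0 and of 0.584 to 0.595 in the E2 libraries, and of 0.647 in TamR, the same order of size as the E2 differences of PIK3CB, MTOR and PIK3R1. Mean scores over the whole window had T0 above all E2 libraries for PIK3CA, PIK3CB and INPP4B but not for PIK3R1, and below all for AKT2 and MTOR but not for AKT1. GC content was higher in the bins of the members with T0 below all E2 libraries. The bins of AKT1, AKT2 and MTOR had 58.0, 52.9 and 47.2% GC and those of the other members 36.5 to 41.5%. Across all bins, Pearson's r of the difference from T0 with GC was 0.200 at T24, 0.120 at T1, 0.0363 at T4, 0.112 at T16 and 0.0151 in TamR. The bins of AKT1 and AKT2 held 11 and 7 HindIII sites, where the median bin held 29. Those of PIK3CB, MTOR and PIK3R3 also held fewer, 18.7, 22.3 and 26 per bin. Those of PIK3CA, INPP4B and PIK3R1 held 32.5, 34.9 and 35 per bin. The part of base composition and of cutting sites in the E2 differences was not tested.

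**Figure D3:**
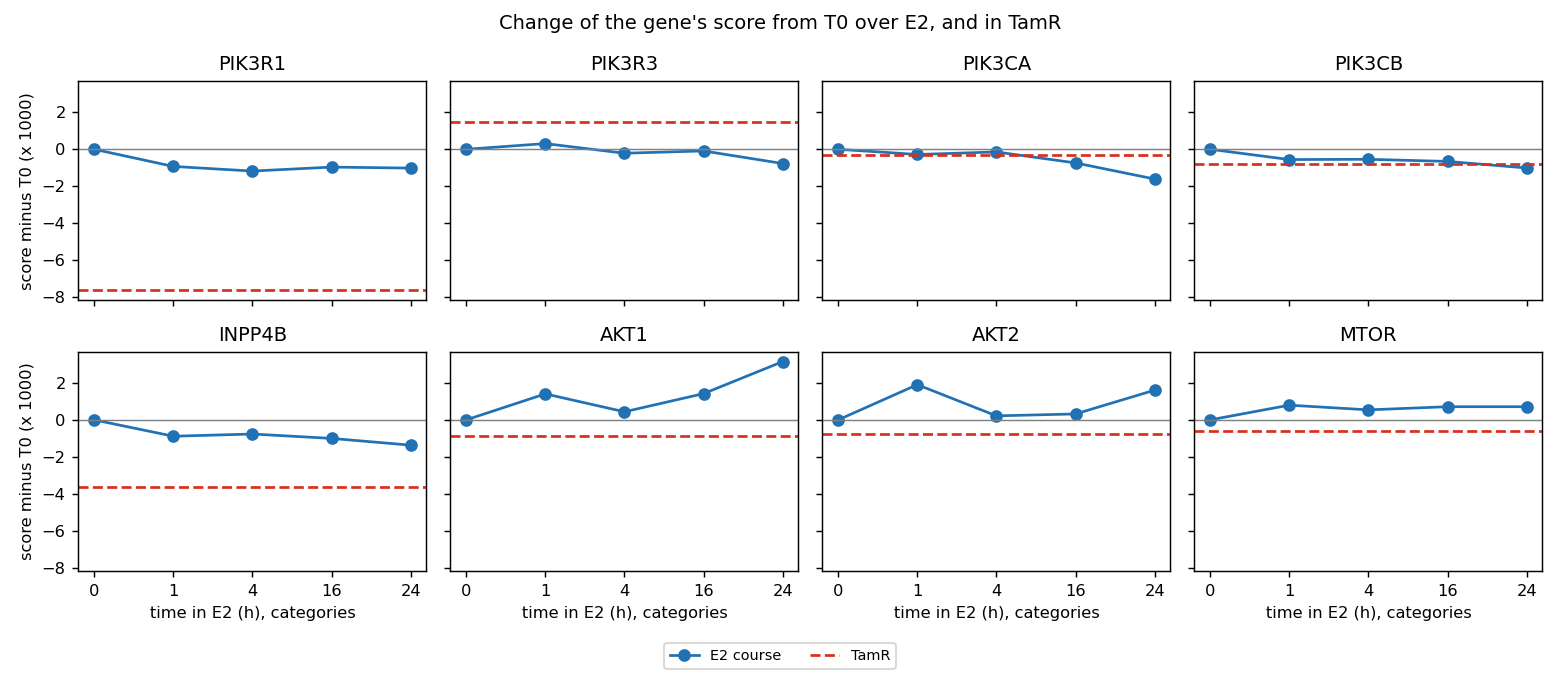
Score minus that of T0 (x 1000, y axis, same scale in all panels) for each of the 8 genes against the time in E2 in hours, drawn as equally spaced categories, with the TamR value as a dashed line. AKT1 reaches 3.14 at 24 h and PIK3CA -1.61, and the TamR line lies at -7.62 for PIK3R1 and at -3.62 for INPP4B.

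A wider list of 59 pathway genes, all with a score, puts the members beside their partners. The list was chosen with earlier results of these data known and holds PIK3R1. Nothing is therefore read from its counts and shares, here or below. Of the listed genes, 50 were A in all parental libraries and 6 were B. In TamR 4 genes (6.78% of the list, against 2.74% of all genes) had passed from A to B: PIK3R1, the insulin receptor substrates IRS1 and IRS2, and the AKT phosphatase PHLPP1. IRS1, an adaptor that links insulin and IGF receptors to PI3K, scored 1.70 at T0 and -4.96 in TamR, and IRS2 1.85 and -3.40. PHLPP1 scored 2.42 and -0.195, close to the border, and its call was lost both with the library median as the border and in the bin of its start. From B to A passed 2 genes, PIK3R4, the regulatory partner of the class III kinase (-3.76 at T0 and 2.25 in TamR), and FOXO1, a forkhead factor that AKT keeps out of the nucleus (-4.65 and 0.0995).

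Shifted below the parental range by the percentile rule were 7 genes (11.9%, against 6.82%): the A-to-B genes, INPP4B, GAB2, an adaptor (5.28 at T0 and 1.81 in TamR), and EIF4EBP1, a translation repressor that mTORC1 inactivates (5.16 and 1.34). Shifted above were 2 (3.39%, against 8.53%), PIK3R4 and FOXO1. A sign change over E2 was seen in 3 (5.08%, against 5.31%), PIK3CA, the mTORC2 partner PRR5L and the kinase SGK1. PRR5L scored 0.393 at T0 and between -0.738 and -0.0247 over E2. SGK1 scored 0.745 at T0, -0.0675 at T24 and -0.702 in TamR. The median percentile difference of TamR from T0 was -1.89 points over the list and -0.441 over all genes. Without the members, the 51 other genes held 3 from A to B, 2 from B to A, 5 shifted below and 2 above.

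Role by role, the changes were scattered. Among the class I regulatory subunits, PIK3R1 alone was called, and PIK3R2 scored 14.6 at T0 and 12.8 in TamR, PIK3R5 6.39 and 8.37, and PIK3R6 6.99 and 8.54. PIK3CD, the catalytic subunit of leukocytes, scored 9.45 and 9.38, and PIK3CG 4.93 and 2.88. Of 6 phosphoinositide phosphatases INPP4B alone was called. INPP4A, the paralogue of INPP4B, scored 7.48 at T0 and 5.62 in TamR. The 8 adaptors and modulators had the most calls, with IRS1, IRS2 and GAB2 shifted below, while GAB1 scored 3.27 and 2.34. None of the 4 genes of the TSC complex and RHEB was called in TamR, and none of the 9 genes of the mTOR complexes was. RPTOR, which defines mTORC1, scored 12.1 and 11.04, and RICTOR, which defines mTORC2, was B throughout, at -0.754 and -0.475.

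**Figure D4:**
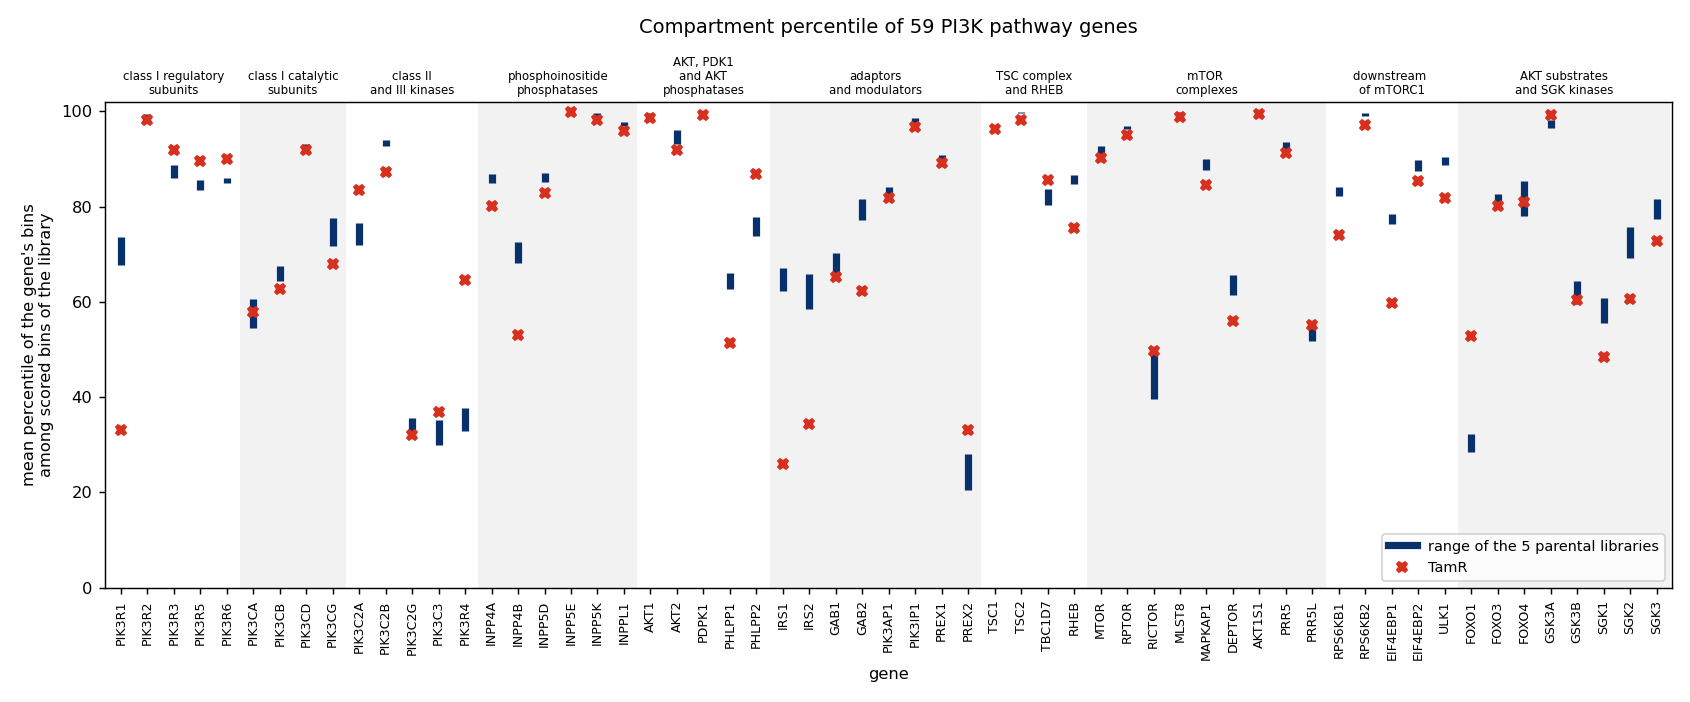
Percentile of each of 59 pathway genes (y axis, mean over the bins of the gene of their ranks among the scored bins of the library), grouped by role, with the range of the 5 parental libraries as a bar and TamR as a cross. PIK3R1, IRS1 and IRS2 have the crosses farthest below their bars, and PIK3R4 and FOXO1 those farthest above.

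On other chromosomes, the genes whose 6 scores were closest to those of PIK3R1 (Euclidean distance over the 6 libraries, in units of the library SD) were GRIA3 at 0.164, HPS3 at 0.195, CP at 0.212, NPAS3 at 0.220 and HLTF at 0.243. HPS3, CP and HLTF are neighbours on chromosome 3 and share bins or lie next to each other. GRIA3, a glutamate receptor subunit on chromosome X, scored 3.71 at T0 and -4.06 in TamR. For INPP4B they were CCDC81, NEK3, CREG2, HIKESHI and C2orf74, at 0.0933 to 0.101, with CCDC81 at 3.59 and 0.327. The TamR value is part of the measure, so their lower score in TamR is no separate finding.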

How the data were processed

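For each of 6 TCC libraries the authors deposited 1 score for each 100 Kb window of hg19, namely the leading eigenvector of the corrected contacts. Per the study's methods, reads were aligned with bowtie2 and corrected iteratively in HiCLib, and only contacts between chromosomes entered the eigenvector. Replicate handling of T47D is not given in the sources used here. Bins at 0 in any library were left out. Chromosome lengths of GRCh37 match the bins on all 23 chromosomes. Gene bodies and starts came from GENCODE (lifted to GRCh37), promoters from RefSeq. Scores were multiplied by 1000, signs read with 0 as the border, and ranks computed within each library. Depth is unknown, so no interval was computed. With 1 library per condition no test was made. The members and gene lists were chosen with earlier results of these data known. From the pathway list, 2 genes are not reported here. Genes named are the members, genes in a run that switches at a member, pathway genes called and up to 3 others per role, and the 5 genes on other chromosomes nearest in pattern to PIK3R1 and INPP4B. Genes beside the PIK3R1 run, or sharing member bins, were named after their values were seen. Simulated tracks with changes planted far from the border were used to check the code, and the planted changes were recovered. They say nothing about calls near 0. Alternatives covered the gene value, the border, the reference, GC residuals, the scale, thresholds, bin size and left-out libraries. Python 3.11.15, numpy 2.4.6, pandas 2.3.3 and matplotlib 3.10.9 were used.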

Additional observations from a re-analysis of the deposited data

How the results depend on the processing

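PIK3R1 was called A to B under every alternative tried: weighted bins, 2 bins added on either side, the library median as the border, T0 alone or, an alternative chosen after seeing the data, the E2 libraries alone as the reference, GC residuals, and the bin of the gene start. Several of these could not have given another call. The gene lies inside 1 bin, so weighting and the start bin leave its value unchanged. A gene that is A in all parental libraries is also A in T0 alone and in the E2 libraries alone. Only the added bins, the median border and the GC residuals could have changed the call. With the start bin alone in place of the gene body, members A to B numbered 2, since INPP4B scored -0.627 there. Members shifted below the parental range numbered 1, PIK3R1, in place of 2 with scores divided by the library SD (0.5 SD) or with 20 percentile points. The difference of PIK3R1 from T0 (-7.62) was -6.80 against the parental mean. That of PIK3CA, within the parental range, was -0.317 against T0 and 0.236 against the parental mean, so it has no stable direction. Against the parental mean that of INPP4B was -2.81, of PIK3CB -0.232, of AKT1 -2.13, of AKT2 -1.58 and of MTOR -1.15. Members with a sign change over E2 numbered 0 with the median border, 2 (AKT1 and AKT2) with GC residuals, and 0 to 1 with an E2 library left out in turn, 0 being without T24. The run at PIK3R1 was 3000 Kb, or 3500 Kb with 500 Kb means. The pathway list held 4 A-to-B genes, 4 with the median border, where SGK1 stood in for PHLPP1, and 5 with the start bin, where PHLPP1 was lost and INPP4B and SGK1 were added. No paired analysis was possible because no condition has more than 1 library.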
